A study of Homo sapiens with 8 samples.

Results

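The BEX and TCEAL genes form a cluster of small, closely related genes on the long arm of chromosome X, and BEX2, the gene that the study knocked down, is one of them. The members described here were chosen by name: BEX1, BEX2, BEX4, BEX5, NGFRAP1 (the older symbol of BEX3), TCEAL1, TCEAL3, TCEAL4, TCEAL8 and WBP5 (the older symbol of TCEAL9). Of these 10 genes, 9 have a probe under that name among the 34809 gene names on the array, and 7 were bright enough to be tested. Levels were measured in HuCCT1, an established line of human intrahepatic cholangiocarcinoma (a cancer of the bile ducts within the liver), on 8 single-colour Agilent arrays, 2 for each of 4 short hairpin RNA vectors. HuCCT1 cells with shControl and cells with shNontarget were the controls, and the sublines shBEX2-1 and shBEX2-2 carried hairpins against BEX2. All 4 kinds of cell therefore carried a hairpin vector, and no array held RNA of cells without one. The study's text describes a retroviral vector and a control hairpin against luciferase, without saying which control vector that was. Its methods number a pair of BEX2 target sequences that read as reverse complements of each other apart from their end bases, and the array labels number the sublines without giving their targets. No source used here says if a vector's pair of arrays stems from independent cultures, so every p-value measures the spread between these arrays, which may be technical.

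BEX proteins are small adaptor proteins without enzyme activity, studied mostly in neurons, in nerve growth factor receptor signalling and in cell survival. NGFRAP1 was named for its binding to the death domain of the receptor NGFR, and BEX2 has been described as a partner of the transcription regulator LMO2. The TCEAL proteins resemble a part of TFIIS, the elongation factor (encoded by the TCEA genes) that lets stalled RNA polymerase II resume transcription. The genes arose by duplication in placental mammals and share a short promoter element that contains an E-box, the letters bound by USF and other basic helix-loop-helix proteins.

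Because the members are related, the probes were compared first. The middle bases (positions 16 to 45 of 60) of the probes of BEX1, BEX2, NGFRAP1 and BEX5 are shown to let the probes be told apart by eye.
BEX1: gatttttgttagcagaagaattttacctat
BEX2: ctaaacttacacatttgtggtgtacctttg
NGFRAP1: cagtgtaagtttctgtcagcagtagtttca
BEX5: tcataaaatccctgctttctaaattcgcat
Among the 15 probes of members and of TCEAL2, TCEAL5, TCEAL6 and TCEAL7, no pair of probes for different genes shared a run of more than 10 bases. The most alike were the WBP5 probe and the second TCEAL8 probe, with 39 of 57 aligned bases in common but no shared run above 8. TCEAL3 has no row of its own. Its transcripts are listed on both probes that the array names TCEAL6, so a TCEAL3 level could not be read apart from that of TCEAL6.

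The RefSeq promoter table (GRCh38.p14, 250 bases before to 50 after each annotated start) held all 10 members in 15 windows. Of the 10 members, 8 had the E-box CACGTG, which reads the same on both strands, in at least 1 window, against 8.77% of the 27305 genes in the table. The longer palindrome TCACGTGA, which contains that E-box, was present in 6 of the 10 members and in 1.18% of all genes. These letters were chosen after the windows had been read, so the shares are a description. In the stretches below, the E-box is in capitals, with up to 24 bases before it and up to 12 after it, and nothing beyond the annotated start.
BEX1: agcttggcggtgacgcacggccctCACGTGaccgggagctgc
BEX2: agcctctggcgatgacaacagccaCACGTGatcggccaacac
BEX3: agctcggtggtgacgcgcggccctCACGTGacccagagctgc
BEX4: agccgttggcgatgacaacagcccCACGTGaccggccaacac
TCEAL1: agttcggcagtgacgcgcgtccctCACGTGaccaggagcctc
TCEAL3: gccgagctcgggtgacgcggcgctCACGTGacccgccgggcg
TCEAL4: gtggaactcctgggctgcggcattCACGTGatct
TCEAL8: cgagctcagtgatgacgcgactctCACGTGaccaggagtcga
The E-box began between 3 and 80 bases before a start. BEX1 and BEX3 held it at the same distance, 47 bases, and BEX2 and the downstream start of BEX4 at 19 bases. TCEAL2, TCEAL5 and TCEAL6, which are not members, also held it, and TCEAL7 was not in the table.

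The windows without the E-box were those of BEX5 and TCEAL9, and other starts of BEX3 and TCEAL1. TCEAL9 lined up with TCEAL8 around the E-box, with 34 of 40 bases alike, and differed from it within the E-box by C3T, counted from 1 at the first base of the E-box in TCEAL8. The pair is shown with these 6 bases in capitals.
TCEAL8: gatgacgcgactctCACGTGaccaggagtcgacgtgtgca
TCEAL9: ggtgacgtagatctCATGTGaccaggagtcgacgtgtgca
The whole stretch of 250 bases before the start is given for BEX2, at chrX:103310991-103311240 on the minus strand of GRCh38.p14, and for its nearest relative by promoter, BEX4, at chrX:103214858-103215107 on the plus strand.
BEX2: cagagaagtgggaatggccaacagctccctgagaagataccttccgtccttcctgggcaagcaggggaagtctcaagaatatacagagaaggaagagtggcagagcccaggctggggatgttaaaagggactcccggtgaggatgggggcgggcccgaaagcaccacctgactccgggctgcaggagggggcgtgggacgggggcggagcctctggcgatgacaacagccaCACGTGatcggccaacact
BEX4: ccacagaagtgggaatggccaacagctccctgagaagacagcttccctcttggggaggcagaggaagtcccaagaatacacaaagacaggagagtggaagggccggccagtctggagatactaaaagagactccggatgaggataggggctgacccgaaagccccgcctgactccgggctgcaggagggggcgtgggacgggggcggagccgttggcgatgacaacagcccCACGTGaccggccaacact
BEX2 and BEX4 shared a run of 45 bases, the longest of the 45 pairs of members, for which the median was 10 bases.

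**Figure D1:**
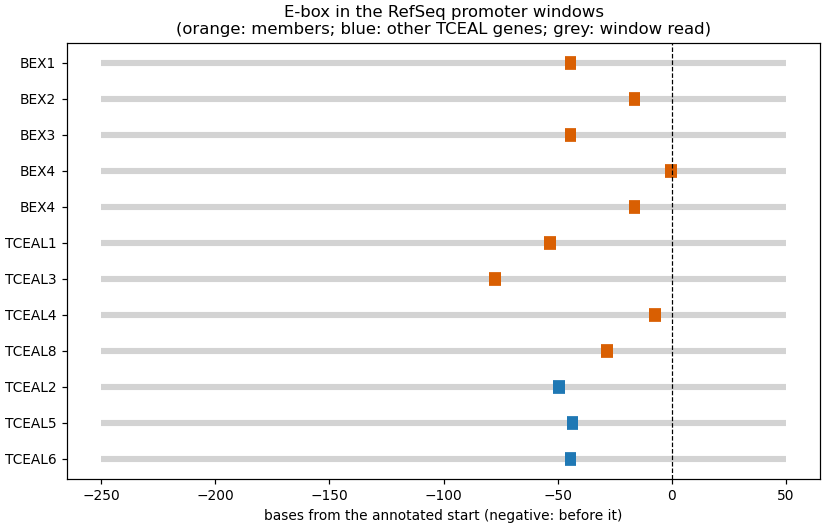
Position of the E-box CACGTG in each RefSeq promoter window that holds it, in bases from the annotated start (0, dashed line), for members (orange) and other TCEAL genes (blue); grey bars are the windows read, from 250 bases before to 50 after the start. All of them lie within 80 bases of the start, and the 2 entries for BEX4 are its 2 annotated starts.

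The signal of each probe is given as log2 of the processed intensity minus the array's 75th percentile of that quantity, called the normalized level below, so that a level of 0 is the 75th percentile of the array and a difference of 1 is a factor of 2. That percentile was an intensity of between 441 and 838 on the 8 arrays. The 8 markers of biliary epithelium that were examined, KRT7, KRT19 and EPCAM among them, were well above background on all 8 arrays, whereas of 4 hepatocyte markers ALB, TTR and AFP were so on none and 1 was so on some arrays. Of 5 fibroblast markers COL1A1 and LUM were well above background on all 8 arrays and COL1A2 and COL3A1 on none, and of 4 leukocyte markers CD14 alone was so on all 8. Neuronal markers bear on this family, and of 5 of them SYP, CHGA and NEFL were well above background on no array, while SNAP25 was so on all 8. The part of other cell types in the results was not tested. All control arrays lay in one row of the single slide and all BEX2-knockdown arrays in the other, so that slide position and group cannot be told apart.

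BEX2 was the only member that passed the test between the arms. Setting the 4 knockdown arrays against the 4 controls asked what the hairpins did to the targeted gene and to its relatives, and BEX2 fell by 1.63 on the log2 scale (SE 0.32, 95% confidence interval -2.35 to -0.91, limma adjusted p = 0.0116), or 3.1-fold. Over all genes, 12.9% of 20450 were called in this comparison (Benjamini-Hochberg adjusted p under 0.05) 6.26% were called lower and 6.68% higher, so that 1 of 7 tested members, or 14.3%, is near the share of all genes. The BEX2 probe (chrX:102564430-102564489 of hg19, minus strand) had normalized levels of -3.36 and -3.91 with shControl and of -2.70 and -3.77 with shNontarget. The levels were -5.21 and -5.54 with shBEX2-1 and -4.92 and -4.60 with shBEX2-2. Every knockdown array was below every control array, which was so for 10.7% of all genes. The arms were apart in either direction for no other tested member and for 22.1% of all genes.

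The BEX2 probe was a dim one throughout, with processed intensities of 48.8 to 115 on the control arrays and of 11.1 to 26 on the knockdown arrays. It was well above background on all 4 control arrays and on both shBEX2-2 arrays, and on neither shBEX2-1 array. For shBEX2-1 the lowest signal well above background was therefore taken as the level (measured means -5.37 against -3.44). On that footing the BEX2 mean was 3.22-fold below that of the controls, a figure without an error. In the model with 4 vectors the fitted fall was 1.94 for shBEX2-1 (SE 0.37, interval -2.83 to -1.05, limma adjusted p = 0.0335), where 7.03% of all genes were called. For shBEX2-2 the estimate was -1.32 (SE 0.37, limma adjusted p = 0.0812), which did not pass the test, and 9.67% of all genes were called. Without the first shNontarget array this estimate was -1.06, and without the second it was -1.59, in fits described further on. The levels of the sublines did not overlap, a separation that was not counted over all genes. Their fitted difference of -0.61 had an interval of -1.64 to 0.41. By real-time PCR and western blot, which were not read here, the study reports minimal BEX2 in both of its HuCCT1 knockdown sublines. The size of the BEX2 difference in 4 against 4 arrays varied with the background correction. With normexp correction and quantile normalization it was -0.70 and still called (limma adjusted p = 0.0216), and with normexp correction and the 75th percentile scaling, a fit added after seeing the data, it was -0.45 and not called (limma adjusted p = 0.0796). BEX2 passed the filter on dim probes mainly through the control arrays, the arm in which it is high. Without that filter the call of the BEX2 difference was kept (limma adjusted p = 0.0248). With shNontarget alone as the control it was -1.83 (limma adjusted p = 0.0787), a fit that called 1.67% of all genes and no member. The call in shBEX2-1 was lost when any one array was left out of shControl, shBEX2-1 or shBEX2-2 (limma adjusted p of 0.0995 to 0.239).

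**Figure D2:**
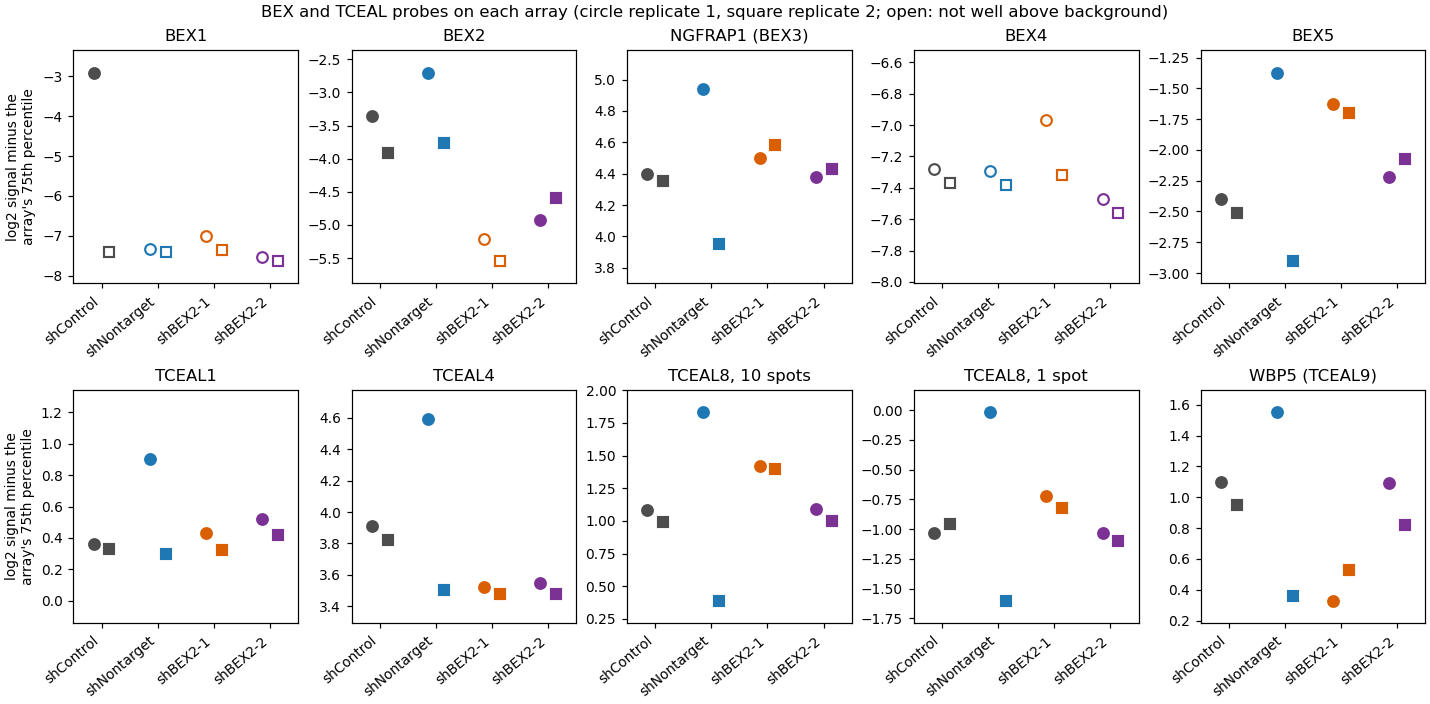
Normalized level (log2 intensity minus the array's 75th percentile, each panel with its own axis) of the 10 probes of members on the 8 arrays, by vector, with circles for replicate 1 and squares for replicate 2; open symbols were not well above background. BEX2 is lower on all 4 knockdown arrays than on the controls, BEX4 is open throughout, and in the 8 panels apart from BEX1 and BEX4 the shNontarget circle is the highest point.

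The other BEX genes fell into dim and measured ones. BEX4 (chrX:102471282-102471341 of hg19) was well above background on none of the 8 arrays, with intensities of 3.23 to 5.08. Its normalized levels of -7.28, -7.37, -7.29 and -7.38 on the control arrays and of -6.97, -7.32, -7.47 and -7.56 on the knockdown arrays are values that the scanner software put in place of a signal near background, and carry no order. BEX1 (chrX:102317618-102317677 of hg19) was in the same range on 7 arrays, from -7.62 to -6.99, and stood at -2.91 on the first shControl array, with an intensity of 97.3. The single BEX1 spot was not alone in this. Of the 23 spots within 2 rows and columns of it, 3 (13%) were well above background on that array and on no other, compared with 0.838% of all 58717 spots, and the part of the neighbourhood in the BEX1 value was not tested.

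NGFRAP1 (BEX3) and BEX5 were measured on every array and showed no called difference. NGFRAP1 (chrX:102632908-102632967 of hg19, 2 spots) had normalized levels of 4.40, 4.35, 4.94 and 3.95 on the control arrays and of 4.50, 4.58, 4.38 and 4.43 on the knockdown arrays, a difference of 0.06 (interval -0.39 to 0.51, limma adjusted p = 0.880). The 4 knockdown arrays lay within the range of the controls. BEX5 (chrX:101408841-101408900 of hg19) had levels of -2.40, -2.51, -1.37 and -2.90 on the control arrays and of -1.63, -1.70, -2.22 and -2.07 on the knockdown arrays. Every knockdown array was above the shControl arrays and below the first shNontarget array. The difference of 0.39 did not pass the test (interval -0.31 to 1.09, limma adjusted p = 0.467). Without the first shNontarget array it was 0.70 (limma adjusted p = 0.0342), a called rise, with 23.1% of all genes called in that fit. Without the second shNontarget array BEX2 alone was called, with 21.1% of all genes.

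Among the TCEAL genes, whose proteins resemble TFIIS, TCEAL4 was the nearest to a change. Its normalized levels (chrX:102842228-102842287 of hg19) were 3.91 and 3.82 with shControl and 4.59 and 3.5 with shNontarget. On the knockdown arrays they were 3.52, 3.48, 3.55 and 3.48, close to each other, and only the second shNontarget array reached into that range. The difference of -0.44 did not pass the test (interval -0.92 to 0.04, limma adjusted p = 0.214). It was called lower with quantile normalization (-0.52, limma adjusted p = 0.0328), with normexp background correction followed by quantile normalization (-0.50, limma adjusted p = 0.0367) and against shControl alone (-0.35, limma adjusted p = 0.0104), fits that called 14.6%, 15.6% and 33.5% of all genes. It was not called against shNontarget alone (-0.53, limma adjusted p = 0.397), without the first shNontarget array (-0.23, limma adjusted p = 0.223) or without the second (-0.59, limma adjusted p = 0.0532).

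WBP5 (TCEAL9; chrX:102612844-102612903 of hg19) had normalized levels of 1.10, 0.95, 1.55 and 0.36 on the control arrays. Its levels were 0.33 and 0.53 with shBEX2-1 and 1.09 and 0.82 with shBEX2-2. The shBEX2-1 pair was thus below the shBEX2-2 pair and near the second shNontarget array. The difference of the arms was -0.30 (interval -0.88 to 0.28, limma adjusted p = 0.508). TCEAL1 (chrX:102885333-102885392 of hg19, 2 spots) had levels of 0.36, 0.33, 0.90 and 0.30 on the control arrays and of 0.43, 0.32, 0.52 and 0.42 on the knockdown arrays, a difference of -0.05 (interval -0.40 to 0.30, limma adjusted p = 0.874). Its 7 levels other than that of the first shNontarget array lay between 0.30 and 0.52.

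TCEAL8 was read by 2 probes, and the first of them by 10 spots per array, which shows the error within an array. The probe with 10 spots (chrX:102507998-102508057 of hg19, minus strand) had normalized levels of 1.08, 0.99, 1.83 and 0.39 on the control arrays, and of 1.42, 1.4, 1.09 and 1.0 on the knockdown arrays. The SD of log2 intensity among its spots was 0.053 to 0.081 on an array, a spread that covers spots of one hybridization and not the difference between arrays. The difference of the arms was 0.15 (interval -0.46 to 0.77, limma adjusted p = 0.768). The second probe (chrX:102508587-102508646 of hg19, 1 spot) showed the same order of the control arrays at its top and bottom, with -0.02 on the first and -1.60 on the second shNontarget array, and a difference of -0.01 (limma adjusted p = 0.984). Neither probe passed the test, and their signs differed.

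**Figure D3:**
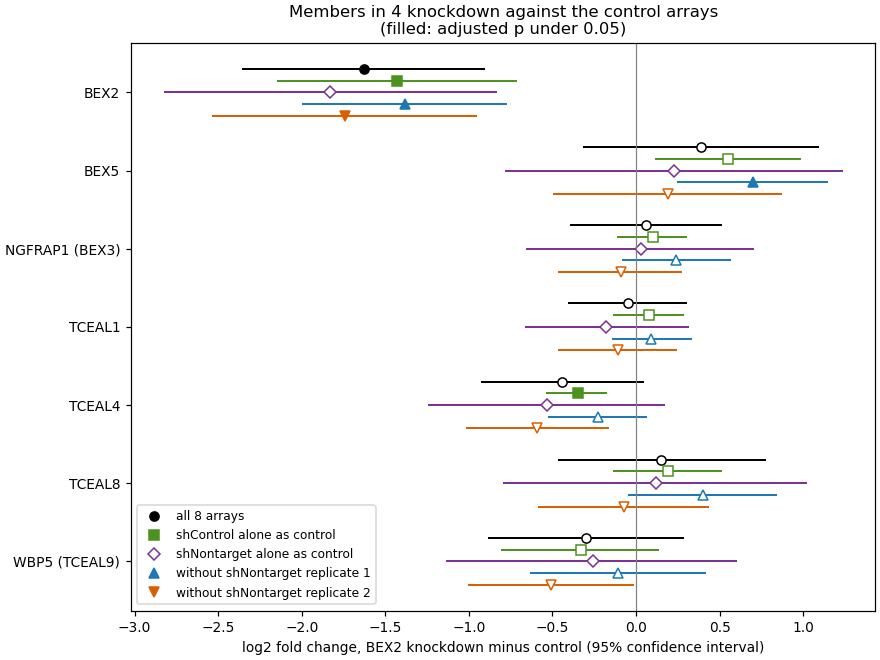
Log2 fold change of the 7 tested members, BEX2 knockdown minus control, with 95% confidence intervals, for all 8 arrays (black), with shControl (green) or shNontarget (purple) alone as the control, and without the first (blue) or second (orange) shNontarget array; filled symbols have a limma adjusted p under 0.05. BEX2 is below 0 in all 5 fits, from -1.83 to -1.38, and open with shNontarget alone; the other members lie within 0.70 of 0.

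All 7 tested members were higher on the first than on the second shNontarget array. The gaps were 1.52 for BEX5, 1.43 for TCEAL8, 1.19 for WBP5, 1.09 for TCEAL4, 1.07 for BEX2, 0.99 for NGFRAP1 and 0.61 for TCEAL1. Of all genes, 46.1% were higher on the first array, and 24% were higher by at least the gap of TCEAL1. A gap above 1 was found for 5 of the 7 members and for 12.4% of all genes, while 22.5% of all genes were lower by more than 1. The first shNontarget array was the highest of all 8 for each of the 7 members, against 22.9% of all genes. The second was the lowest of the control arrays for 6 of the 7, against 35.2% of all genes, and both held for 6 of the 7, against 25.7%. The exception was BEX2, whose lowest control level was on the second shControl array. In the other vectors the gaps of members ran from -0.32 to 0.55, both of them for BEX2. The gap of BEX2 was 0.55 in shControl (the 97.3rd percentile of all genes), 0.33 in shBEX2-1 (88.8th) and -0.32 in shBEX2-2 (6.04th), and that of WBP5 in shBEX2-2 was 0.27 (92.4th). The median over members was 0.10 for shControl, 0.04 for shBEX2-1 and 0.07 for shBEX2-2, compared with 1.09 for shNontarget, and the median gap of all genes without sign was 0.117, 0.147, 0.106 and 0.705 in the same order. TCEAL5 and TCEAL6 are not members by name, although the TCEAL6 probes also list transcripts of the member TCEAL3. They had gaps of 1.98 and 2.14 between the shNontarget arrays, the 99.6th and 99.8th percentile of all genes. The gap of TCEAL2 was smaller, at 0.76 (80.8th percentile). TCEAL7, which was not tested, went the other way, with -6.25 on the first and -4.88 on the second shNontarget array. Only the latter value was well above background. The labels give no reason to prefer one of these arrays, and the cause of the gap was not tested.

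**Figure D4:**
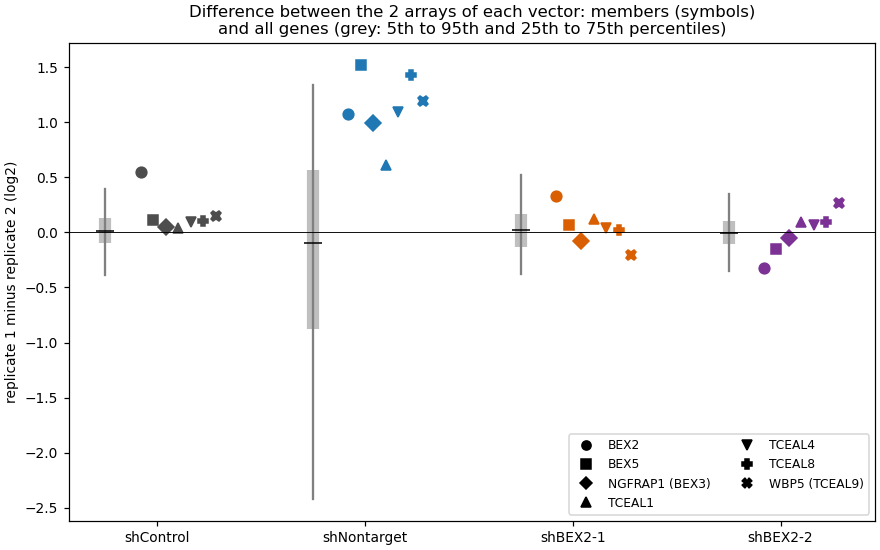
Replicate 1 minus replicate 2 of each vector on the log2 scale for the 7 tested members (symbols) and for all 20450 genes (grey; thin bar 5th to 95th percentile, thick bar 25th to 75th percentile, black dash median). The shNontarget members lie between 0.61 and 1.52, above the 75th percentile of all genes at 0.57, while the members of the other vectors lie between -0.32 and 0.55.

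The calls of the vector model differed with the shNontarget array left out. With all 8 arrays, that model called BEX2 in shBEX2-1 and no other member in any of its 4 contrasts. Between the control vectors no member was called by limma (background 0%), none had an unadjusted p under 0.05, and the differences ran from -0.07 (WBP5) to 0.40 (BEX2). Without either shNontarget array BEX2 was called lower in both sublines. Without the first, BEX5, NGFRAP1 and TCEAL8 were called higher in both sublines, by 1.01, 0.38 and 0.69 in shBEX2-1 and by 0.53, 0.24 and 0.33 in shBEX2-2. Without the second, TCEAL4 and WBP5 were called lower in both sublines, by -0.72 and -0.86 in shBEX2-1 and by -0.71 and -0.34 in shBEX2-2, TCEAL1 was then called lower in shBEX2-1 (-0.25), and NGFRAP1 and TCEAL8 in shBEX2-2 (-0.26 and -0.39). The direction of NGFRAP1 and TCEAL8 against the controls thus turned with the array left out. Of all genes, 52.9% and 51.5% were called in shBEX2-1 and shBEX2-2 without the first array, and 52.6% and 54.5% without the second. Between the control vectors, 5 members were then called lower in shNontarget without its first array (45.2% of all genes called), and 7 higher without its second (46.3%). In these fits the remaining shNontarget array was assumed to vary like the other vectors.

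The sublines were compared with each other, since this contrast uses no control array for its size. With all arrays, no member was called and 0.00978% of all genes were. The shBEX2-1 minus shBEX2-2 differences were 0.48 for BEX5 (interval -0.63 to 1.59), 0.37 for TCEAL8 (-0.66 to 1.4) and -0.52 for WBP5 (-1.42 to 0.38). The pairs did not overlap in any of these genes, nor in BEX2 and NGFRAP1. The share of all genes with pairs apart was not counted, so nothing about the members is read from this separation. The same differences were called once either shNontarget array was left out, with limma adjusted p of 0.0306 and 0.0258 for BEX5, 0.0186 and 0.0176 for TCEAL8, and 0.0258 and 0.0249 for WBP5, where 14.4% and 14.7% of all genes were called. For TCEAL4 the difference was -0.01 (-0.83 to 0.80).

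The other genes of the family, and genes known or reported as partners, were read from a list. TCEAL2, TCEAL5 and TCEAL6, the last not read apart from TCEAL3, were tested, and none was called, against 12.9% of all genes. TCEAL2 had a difference of -0.27 (limma adjusted p = 0.440), TCEAL5 one of 0.60 (0.330) and TCEAL6 one of 0.53 (0.417), and TCEAL7 was well above background on 1 of 8 arrays. The control arrays of TCEAL5 ran from -0.37 to 1.61 and held all but 1 of its knockdown arrays. Of the 2 TFIIS genes tested, TCEA2 fell and TCEA1 was not called, in a comparison that called 12.9% of all genes. TCEA2, a TFIIS form with a more restricted expression than TCEA1, had normalized levels of -0.59, -0.59, -0.40 and -0.85 on the control arrays and of -2.10, -1.76, -2.67 and -2.90 on the knockdown arrays. All knockdown arrays were below all control arrays, as for 10.7% of all genes, by 1.75 on average (SE 0.25, limma adjusted p = 0.00327). The fall was called in both sublines, with differences of -1.32 in shBEX2-1 and -2.18 in shBEX2-2, where 7.03% and 9.67% of all genes were called. These differences were not called different from each other (0.86, limma adjusted p = 0.316). The call in shBEX2-1 was lost when any one array of shControl, shBEX2-1 or shBEX2-2 was left out (limma adjusted p of 0.059 to 0.194), and that in shBEX2-2 without either of its own arrays (0.081 and 0.0769). With shNontarget alone as the control the estimate was -1.73 and the call was lost (limma adjusted p = 0.0645). TCEA1 had a difference of -0.17 (limma adjusted p = 0.677), and its second probe, at 0.46, had the other sign. TCEA3 was well above background on 3 arrays and not tested.

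Of 11 listed partners, USF2 included, 10 were tested and none was called, against 12.9% of all genes. NGFR, the receptor bound by NGFRAP1, was well above background on no array. CUL2, the scaffold of a ubiquitin ligase, had a difference of -0.85 (interval -1.42 to -0.29, limma adjusted p = 0.0554). Its knockdown arrays (-3.07, -2.86, -2.14 and -2.11) were all below its control arrays (-1.84, -1.41, -1.56 and -1.94). It was called in shBEX2-1 (-1.27, limma adjusted p = 0.0183) and not in shBEX2-2 (-0.44, limma adjusted p = 0.247), but the difference between sublines did not pass the test (-0.84, limma adjusted p = 0.353), and the call in shBEX2-1 was lost when any one array of shControl, shBEX2-1 or shBEX2-2 was left out (limma adjusted p of 0.0658 to 0.222). FEM1B, the substrate receptor of that ligase, had a difference of -0.01 (interval -0.35 to 0.33). The partners that the study describes as mitochondrial were the elongation factor TUFM (-0.04), the chaperonin HSPD1 (0.19), the leucine-degrading enzyme IVD (0.35) and PECR (0.62). The study detected TUFM, HSPD1 and IVD in both of its lysates, and reports clear binding for TUFM in a further check. PECR was near the threshold, with a limma adjusted p of 0.0518, and all its knockdown arrays were above all its control arrays. The arms were also apart for IVD and LMO2, and in either direction for 22.1% of all genes. The transcription regulators LMO2, LDB1 and NHLH2 had differences of 0.74, -0.25 and 0.00, with limma adjusted p of 0.127, 0.360 and 0.995. USF2, which binds E-boxes, had a difference of 0.09 (interval -0.22 to 0.39, limma adjusted p = 0.729).

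The genes around the members were taken as all named features from 100408841 to 103885333 of chromosome X (hg19), which is 1000000 bases beyond the outermost members. Of 84 such features 62 were tested, and 3 were called higher and 2 lower, a share of 8.06% against 12.9% of all genes, with a median difference of 0.14 against 0.03. Of the 62, 27 were long intergenic RNA features, many of which overlap each other, with 1 called. The other 35 had 4 calls. Overlapping features were counted separately in the share and the median. Of the 48 tested features well above background on all 8 arrays, 3 (6.25%) were called. These were ARMCX3, GLA and TIMM8A. ZMAT1, a zinc finger gene, was well above background on 4 control arrays and 1 knockdown array, so that it entered the test mainly through the arm in which it is high. It had control levels of -3.00, -2.57, -3.97 and -2.08 and knockdown levels of -5.02, -5.49, -6.28 and -5.01. The fitted difference of -2.55 (SE 0.44, limma adjusted p = 0.00687) rests on 3 knockdown values that were not well above background, and was -0.90 with normexp correction (limma adjusted p = 0.00535). ARMCX3, an armadillo protein of the mitochondrial outer membrane, fell by 0.61 (SE 0.13, limma adjusted p = 0.0188). GLA, the lysosomal alpha-galactosidase, rose by 0.98 (SE 0.13, limma adjusted p = 0.00295). TIMM8A, a mitochondrial import chaperone, rose by 0.90 (SE 0.21, limma adjusted p = 0.0255). With shNontarget alone as the control none of these 4 calls held, with limma adjusted p of 0.0628 to 0.224. Those of TIMM8A and ARMCX3 were also lost without either shControl array, the first shBEX2-1 array or either shBEX2-2 array (limma adjusted p of 0.0545 to 0.0866). The fifth was a long intergenic RNA feature between BEX5 and BEX1, listed from 102024106 to 102140334, which reached the filter through the knockdown arrays alone (4 of 4, and 0 of 4 controls), so its call carries no weight here. Of 19 other features that overlap it, none was called by limma and 1 had an unadjusted p under 0.05, and the 15 well above background on all 8 arrays had differences of -0.27 to 0.60.

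**Figure D5:**
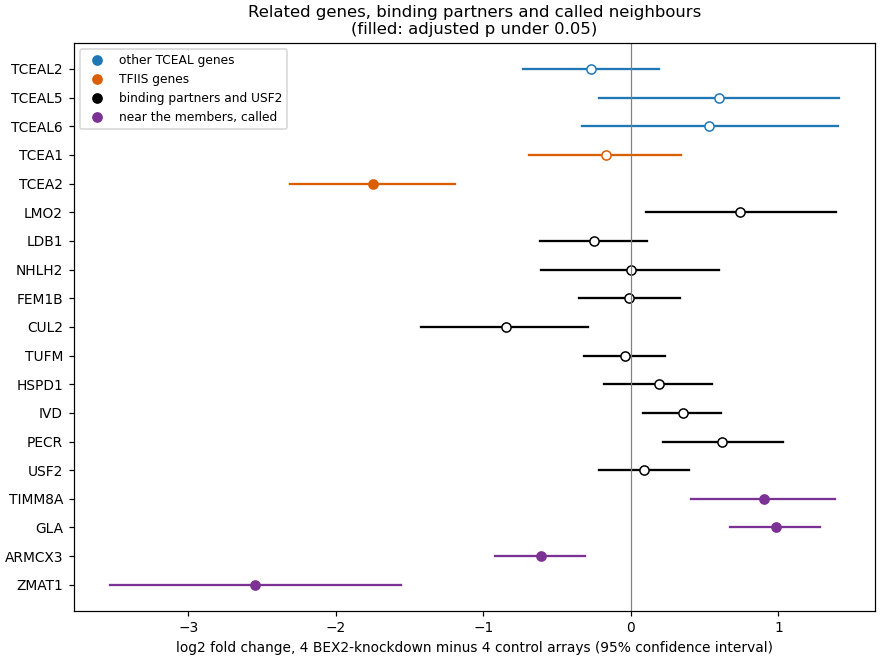
Log2 fold change, 4 BEX2-knockdown minus 4 control arrays, with 95% confidence intervals, for other TCEAL genes (blue), TFIIS genes (orange), binding partners and USF2 (black) and the called named genes near the members (purple); filled symbols have a limma adjusted p under 0.05. TCEA2 at -1.75 and ZMAT1 at -2.55 lie below -1; ZMAT1 was not well above background on 3 of the 4 knockdown arrays.

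The genes whose pattern over the 8 arrays was most like that of BEX2 were found by the root mean square difference of the levels, each gene centred on its own mean. They were the urea transporter gene SLC14A1 (0.24), a feature listed only by its probe, A_32_P52153 (0.25), TMEM61 (0.26), the myosin pseudogene MYH16 (0.31) and PTHLH (0.32), which encodes parathyroid hormone-related protein. The median over genes was 0.99. SLC14A1 had levels of 0.42, 0.29, 0.80 and 0.34 on the control arrays and of -1.62, -1.74, -1.0 and -0.98 on the knockdown arrays. It was lowest with shBEX2-1, as BEX2 was, but it was chosen for its likeness to BEX2 on these same arrays. Neither BEX2 value with shBEX2-1 was well above background. No member was among these 5 genes. The nearest, TCEAL4, stood at rank 937 with 0.66, WBP5 at rank 1850 and TCEAL1 at rank 4622, and BEX5 was the farthest, at rank 13723 with 1.10.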

How the data were processed

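RNA of HuCCT1 cells with each of 4 vectors was measured on 2 single-colour Agilent arrays per vector. Per the labels and file headers, the authors extracted signals with Agilent Feature Extraction 10.7.3.1, and took off background and spatial trends on each array before they deposited the processed intensity, without scaling between arrays. Low values were replaced by a surrogate. The software's flags give spots well above background. A table over all arrays, also deposited, gives this intensity in rounded form. Here control spots were left out, log2 intensities were set against each array's 75th percentile, replicate spots were averaged, and each gene was read from its brightest probe among those well above background on 4 or more of 8 arrays, which left 20450 genes. The precision is limited by the number of arrays. The 4 against 4 comparison and a model with 4 vectors were fitted with limma 3.58.1 in R 4.3.3 (trend on intensity, Benjamini-Hochberg adjustment over all genes, threshold 0.05) and tested on simulated data. Other steps used Python 3.11.15, numpy 2.4.6, pandas 2.3.3, scipy 1.17.1 and matplotlib 3.10.9.

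Groups follow the labels. The members, lists, tests and naming rule were chosen with earlier results of these data known. The rule named all members, all partners and called neighbours (or the 5 largest), and the 5 genes most like BEX2. Probe positions are those of the files (hg19), with no exon or UTR annotation; promoter sequences and their positions are from RefSeq (GRCh38.p14), and no position was converted. Names were matched to RefSeq through the transcripts listed on the probes, since the table lists BEX1 and BEX2 as synonyms of each other. Alternatives were quantile normalization, normexp (offset 50), the series table, other filters and probe rules, a replicate block, a random block for vector, no trend, each control vector alone, the general two-group test of the study's methods on the same values, the rank product over 16 pairs with 100 permutations, and each array left out. Protein sequences and hairpin sequences were not used here, and 1 probe sequence and 1 marker gene are not reported here.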

Additional observations from a re-analysis of the deposited data

Results flagged for a closer look

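In 44 sets of 4 arrays (the control or the knockdown arrays of one probe), 3 had one array apart from the other 3 by more than Dixon's limit at 95% allows for the gap over the range, and chance alone gives about 1 such set in 20. For BEX1 the ratio was 0.984 on the control arrays, where the first shControl array stood at -2.91 and the others at -7.40 to -7.33. For TCEAL1 it was 0.887 on the control arrays, through the first shNontarget array at 0.90. For TCEAL6 it was 0.878 on the knockdown arrays, through the first shBEX2-2 array at 2.25, with the other 3 between 1.75 and 1.81.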

How the results depend on the processing

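Alternatives were compared by the number of genes called. For members in 4 against 4 arrays that number was 1 (BEX2), and it was 2 with quantile normalization, normexp background correction and shControl alone (TCEAL4 added in each), and 0 with normexp under the 75th percentile scaling (an alternative chosen after seeing the data), with shNontarget alone, and with probes required on all 8 arrays, which leaves BEX2 out of the test. With 1 array left out it was 1 to 2. For members in shBEX2-1 the number was 1, was 0 with normexp background correction and ran from 0 to 4 with 1 array left out; for shBEX2-2 it was 0 and ran to 5, for the sublines against each other 0 and to 3, and for the control vectors 0 and to 7, in each case through a shNontarget array. Near the members 5 were called, with 8 under normexp, 14 against shControl alone, 1 against shNontarget alone and 2 to 11 with 1 array left out. Of the list of other TCEAL genes and partners 1 was called, with 5 against shControl alone, 0 against shNontarget alone and 1 to 4 with 1 array left out. Estimates near 0 changed sign: NGFRAP1 to -0.03 with quantile normalization and -0.02 with normexp, and TCEAL1 to 0.08 against shControl alone. With 1 array left out NGFRAP1 ran from -0.09 to 0.24, TCEAL1 from -0.11 to 0.09 and TCEAL8 from -0.07 to 0.40. The replicate numbers of the labels were checked for pairing, and the correlations of replicate differences between vectors ran from -0.0628 to 0.259, 1 of the 6 under 0.1, so that they were not taken to pair the arrays, although the files of replicates 1 and 2 are named for different days, which no label explains; with replicate number as a block the count of members stayed at 1 (BEX2), 1, 0, 0 and 0 in the 5 comparisons, that of neighbours was 4 (the long intergenic RNA lost), and the list of partners had 2 calls (PECR added, limma adjusted p = 0.0433). Leaving out a shNontarget array takes the gap of that pair out of the spread of the vector model. The cause of the other shifts was not tested. Dim probes (BEX1, BEX4, BEX2 in shBEX2-1) limit what can be said of those genes.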
